A study of Homo sapiens with 5 samples.

Results

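Azurophil granules, also called primary granules, are the storage compartments that neutrophil precursors fill at the promyelocyte stage with peroxidase, serine proteases and proteins that attack bacterial walls and membranes. The 10 genes described here are 7 that encode such cargo (MPO, ELANE, AZU1, PRTN3, CTSG, LYZ and BPI) and 3 that encode proteins acting on it, which are the protease activator cathepsin C (CTSC), the proteoglycan carrier serglycin (SRGN) and the protease inhibitor SERPINB1. They were taken by gene name from the 6309 genes of the authors' deposited table, which holds all 10. The rule itself uses no measured value, but the genes were brought together with earlier results of these data known.

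The study used wild-type HL-60, an established human promyelocytic leukaemia line. One group received decitabine, a cytidine analogue that traps DNA methyltransferases, at 100 nM at the start and again at 24 and 48 hours. The control group received the solvent DMSO, and both groups were lysed at 72 hours. Total RNA was sequenced from 2 decitabine and 2 DMSO libraries, and ribosome-protected fragments, the stretches of mRNA covered by ribosomes, came from 1 pooled library with barcoded linkers. All cells belong to a single cancer line, and no label says that the duplicate wells came from separate starting cultures. The p-values can therefore measure at most a spread between these samples that may be technical. Whether the authors' model took that spread into account is not stated.

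The measured quantity is the effect of the drug on translation efficiency, the ribosome-protected amount of an mRNA relative to its total amount. The authors' deposited table gives it as 1 coefficient per gene, read here as the natural log of the ratio of decitabine to DMSO. The log base is not stated, and the reading rests on the column names, which are those R gives to a generalised linear model. A positive sign was taken as higher with drug, also from the column name. No values per library were at hand, so no level, no replicate value and no depth can be given for any of the genes. The error after each ± sign is a standard error (SE) implied by the deposited p-value: the size of a coefficient over the size of its z. A coefficient compares ribosome loading between treatments and says nothing of the amount of an mRNA, and in bulk lysates a change in a fraction of the cells cannot be told apart from a smaller change in all of them.

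Azurophil cargo is made on ribosomes of the rough endoplasmic reticulum, folded with chaperones such as calreticulin, trimmed and stored. The serine proteases are made as inactive zymogens, and CTSC removes their amino-terminal dipeptide. SRGN carries acidic sugar chains that hold basic cargo in the granule, whereas SERPINB1 stays in the cytosol and inactivates proteases that leak out. HL-60 cells are known for abundant MPO.

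As no levels were at hand, the cells could be described only by which markers were among the measured genes. Presence alone does not establish identity. All 5 defining cargo genes of the promyelocyte (MPO, ELANE, AZU1, PRTN3 and CTSG) were measured, but they belong to the chosen set and so carry no weight here. Of 13 markers of promyelocytes and myeloid progenitors 11 were measured. Of 14 monocyte and macrophage markers 5 were measured (CD86, FCGR1A, S100A8, S100A9 and S100A12). Of 17 lymphoid markers 2 were measured (CD4 and NKG7), and of 18 erythroid and megakaryocyte markers 0. Of the measured markers only MPO passed the threshold in the authors' deposited table.

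Because translation is the readout, the first 30 bases downstream of the annotated gene start are shown for the 5 genes that had an entry in the RefSeq promoter table (GRCh38.p14). MPO, ELANE, LYZ, SRGN and BPI had none. Each sequence runs 5′ to 3′ on the gene's own strand, and capitals mark the first ATG where it falls within the bases shown.
AZU1: ctgccccgccATGacccggctgacagtcct
PRTN3: ggaccccaccATGgctcaccggccccccag
CTSG: aactgactgggcagcctttcaggaaagATG
CTSC: accgctagcccgcagcgctcggcttcctgg
SERPINB1: cctgacctcgcacccagctcggagcccgga
These windows lie at chr19:827837-827866 (plus strand) for AZU1, chr19:840999-841028 (plus) for PRTN3, chr14:24576221-24576250 (minus) for CTSG, chr11:88337707-88337736 (minus) for CTSC and chr6:2841834-2841863 (minus) for SERPINB1.

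The neighbouring protease genes AZU1 and PRTN3 both had their first ATG at base 11 from the gene start, which leaves very little mRNA ahead of it. Only the given strand was searched, over 50 bases. A first ATG by base 11 was present in 7.45% of 7329 windows of the measured genes and in 11.3% of all 35116 windows. In CTSG the first ATG began at base 28, and CTSC and SERPINB1 had none within 50 bases. None of the 5 windows began with a C followed by 4 pyrimidines, a simple form of the start of terminal oligopyrimidine mRNAs that 5.51% of windows of measured genes and 4.07% of all windows had. Whether each ATG opens the coding sequence, and which start site HL-60 cells use, was not tested.

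Of the 10 genes, MPO and LYZ had higher translation efficiency with decitabine, and the other 8 did not pass in either direction. The threshold throughout is an adjusted p below 0.05 over all genes of the authors' deposited table. There 40 of 6309 genes were called higher, which is 0.634%, and 11 were called lower, which is 0.174%; of the granule genes 2 of 10 were called higher and 0 lower. The count of 2 has to be read with precision: among the 64 most precisely measured genes, which held MPO, LYZ and SRGN, 21.9% were called higher. At an unadjusted p below 0.05 the count was also 2 granule genes, beside 650 of all genes, or 10.3%, in the authors' deposited table. Signs were mixed across the set, with 6 coefficients above 0 and 4 below, while 65.0% of all genes had a coefficient above 0. The median of the set was 0.05 against 0.09 for all genes in the authors' deposited table.

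**Figure D1:**
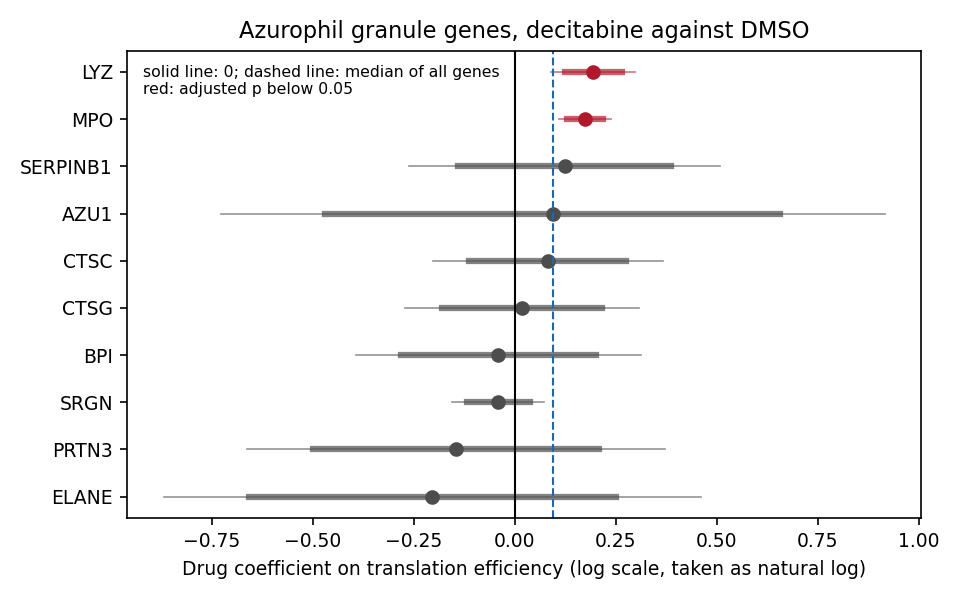
Drug coefficient on translation efficiency for each of the 10 azurophil granule genes (x axis, taken as natural log; positive is higher with decitabine), ordered by coefficient; thick bars are 95% intervals from the implied standard errors, thin bars the same with errors inflated 1.46 times, the solid line is 0, the dashed line is the median of all genes (0.09), and red marks an adjusted p below 0.05. LYZ and MPO lie to the right with short bars, SRGN has a short bar to the left of the dashed line, and ELANE and AZU1 have the widest bars.

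MPO encodes myeloperoxidase, the haem enzyme that makes hypochlorous acid from hydrogen peroxide and chloride. In the authors' deposited table its coefficient was 0.17 ± 0.02 with an adjusted p of 1.36e-10, and no other gene had a smaller p-value. As a natural log this is 1.19 times the DMSO level (95% interval 1.14 to 1.24), and read as log2 it would be 1.13 times. The change was small and its error smaller still: the implied SE of MPO was the lowest of all 6309 genes, against a median of 0.25, while 2314 genes had a larger positive coefficient than MPO. MPO (ENSG00000005381) spans chr17:58269855-58280935 on hg38.

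LYZ encodes lysozyme, which cleaves the peptidoglycan of bacterial walls and is also found in the later granule types. The authors' deposited table gave it 0.19 ± 0.04 with an adjusted p of 4.82e-05, or 1.21 times the DMSO level (1.13 to 1.30) as a natural log. Its implied SE ranked 4 among all genes. LYZ and MPO differed by 0.02 (95% interval -0.06 to 0.10), so these data do not separate the 2 called cargo genes from each other. The gene (ENSG00000090382) spans chr12:69348381-69354234 on hg38.

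Both calls depended on which coefficient counts as no change. In the authors' deposited table the coefficients had a median of 0.09 over all genes. After its subtraction MPO had 0.08 with a recomputed adjusted p of 0.0781, and LYZ had 0.10 with one of 0.301. None of the 10 genes then passed, beside 5 of all genes called higher (0.0793%) and 32 called lower (0.507%). On that centred scale the unadjusted 95% interval of MPO ran from 0.03 to 0.12 and that of LYZ from 0.03 to 0.17. The spread of well-measured genes was also wider than their implied errors: over the 20% of genes with the lowest SE, the SD of z around the median was 1.46, against 1 for genes that do not change and whose error is complete. Over the 20% of genes with the highest SE that SD was 1.06, so 1.46 is larger than the spread found there. With every implied SE inflated by 1.46 and no centring, MPO passed with an adjusted p of 0.00109 and LYZ did not with one of 0.149. Under the same rule 4 of all genes were called higher (0.0634%).

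SRGN, the proteoglycan core that carries cargo into the granule, was measured about as precisely and did not pass the threshold. In the authors' deposited table its coefficient was -0.04 ± 0.04 with an adjusted p of 0.776, or 0.959 times the DMSO level (0.888 to 1.04) as a natural log. The implied SE of SRGN ranked 5 among all genes, and at that error a coefficient of 0.14 would have passed. Relative to the median of all genes SRGN was at -0.14 (95% interval -0.21 to -0.06) with a recomputed adjusted p of 0.0818. SRGN thus lay on the other side of the median of all genes from MPO and LYZ without passing. By coefficient SRGN stood at percentile 29.8 of all genes, MPO at 63.3 and LYZ at 66.3, so many genes lay further out on either side. SRGN (ENSG00000122862) spans chr10:69087603-69104811 on hg38.

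The gap between the carrier and these cargo genes was the only difference among members whose 95% interval left out 0. MPO exceeded SRGN by 0.21 (95% interval 0.13 to 0.30) and LYZ exceeded SRGN by 0.24 (0.13 to 0.34), computed from the deposited coefficients with their implied errors taken as independent. As natural logs these are ratios of 1.24 (1.13 to 1.36) and 1.27 (1.14 to 1.41). A difference between 2 genes of the same table does not depend on the placement of zero. Among all 45 pairs of members, only these 2 had a 95% interval without 0. Both kept it with intervals widened for 45 pairs (0.07 to 0.36 and 0.06 to 0.41). Both also kept it with inflated errors (0.08 to 0.35 and 0.08 to 0.39). Widening and inflation were each applied alone. Intervals with both at once are wider and were not computed, so it is not shown that the gap would hold under them. No p-value is attached, since the genes were brought together with earlier results of these data known.

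**Figure D2:**
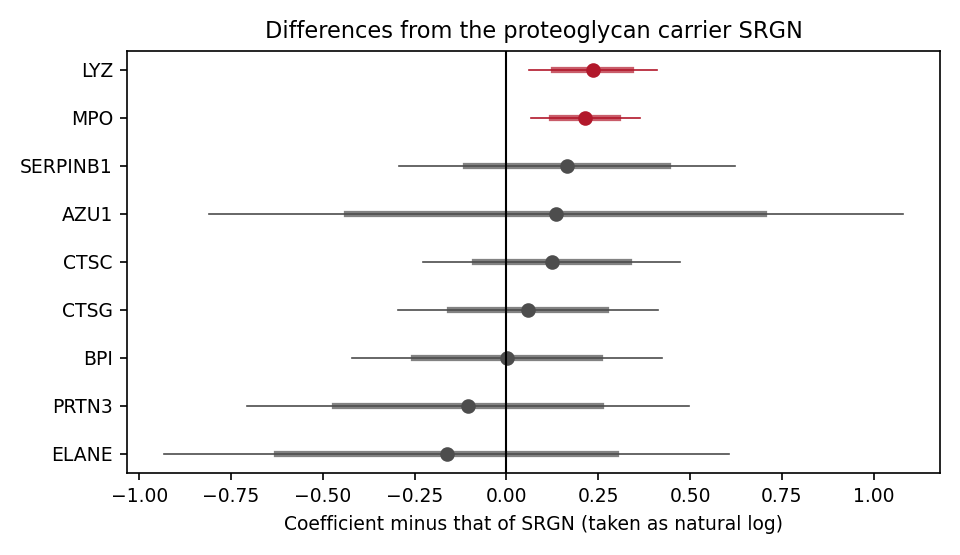
Coefficient of each other azurophil granule gene minus that of SRGN (x axis, taken as natural log), with thick bars for 95% intervals and thin bars for intervals widened for all 45 pairs; red marks genes whose widened interval leaves out 0. LYZ (0.24) and MPO (0.21) lie to the right of 0, and the bars of the other 7 genes cross it.

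The serine protease family, with 4 members here, gave coefficients on both sides of 0 and no call. CTSG encodes cathepsin G, a chymotrypsin-like protease, and had the tightest value of the family in the authors' deposited table, 0.02 ± 0.10 with an adjusted p of 0.971. AZU1 encodes azurocidin, a family member that has lost protease activity and acts on microbes and monocytes, and had 0.09 ± 0.29 there, with an adjusted p of 0.95. PRTN3, encoding proteinase 3, the main autoantigen of granulomatosis with polyangiitis, was at -0.15 ± 0.18 with an adjusted p of 0.841 in the same authors' deposited table. ELANE, encoding neutrophil elastase, which is mutated in cyclic and severe congenital neutropenia, had the lowest coefficient of the members there, -0.20 ± 0.23 with an adjusted p of 0.819. All 4 of their 95% intervals held 0, and the median of the family was -0.06.

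The implied errors limited what could be seen in the proteases. For a call, the coefficient of ELANE would have had to reach 0.82 in size, that of AZU1 1.02, that of PRTN3 0.64 and that of CTSG 0.36. The 95% interval of ELANE ran from 0.517 to 1.29 times the DMSO level and that of AZU1 from 0.626 to 1.93 times, as natural logs, so a shift of the size seen in MPO lies within both. CTSG was bounded more closely, between 0.835 and 1.24 times, but that range too holds a shift of the size seen in MPO. ELANE fell short of MPO by 0.38 (95% interval of the difference -0.08 to 0.84) and CTSG by 0.16 (-0.05 to 0.36), so neither protease was separated from MPO.

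AZU1, PRTN3 and ELANE lie next to each other on chromosome 19, with no other protein-coding RefSeq gene lying wholly within the span of 28407 bases from 827837 to 856243. On hg38 AZU1 (ENSG00000172232) spans chr19:827837-832018, PRTN3 (ENSG00000196415) chr19:840999-848175 and ELANE (ENSG00000197561) chr19:852303-856243. CTSG (ENSG00000100448) is elsewhere, at chr14:24573518-24576250. Within the cluster AZU1 exceeded ELANE by 0.30 (95% interval -0.43 to 1.02) and PRTN3 by 0.24 (-0.43 to 0.90), both within error.

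BPI and the proteins that act on the proteases had coefficients within error of 0 and of the median of all genes. BPI, the bactericidal permeability-increasing protein that binds bacterial lipopolysaccharide, was at -0.04 ± 0.12 with an adjusted p of 0.95 in the authors' deposited table. CTSC, the activator of the proteases, had 0.08 ± 0.10 there, with an adjusted p of 0.838. SERPINB1, the inhibitor of elastase, proteinase 3 and cathepsin G, was at 0.12 ± 0.13 with an adjusted p of 0.806 in the authors' deposited table. It was the only member besides MPO and LYZ above the median of all genes. CTSC differed from CTSG by 0.06 (95% interval -0.21 to 0.34) and SERPINB1 from ELANE by 0.33 (-0.20 to 0.85), so activator, inhibitor and proteases were not separated. BPI (ENSG00000101425) spans chr20:38304156-38337505, CTSC (ENSG00000109861) chr11:88293592-88337736 and SERPINB1 (ENSG00000021355) chr6:2832332-2841863 on hg38.

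From highest to lowest coefficient the order was LYZ, MPO, SERPINB1, AZU1, CTSC, CTSG, BPI, SRGN, PRTN3 and ELANE. None of the 9 pairs of neighbours in that order differed beyond their 95% interval. The unadjusted intervals of 7 members held the median of all genes, while those of MPO and LYZ lay above it and that of SRGN below it. With inflated errors the interval of LYZ held the median too, at -0.004 to 0.20 relative to it. No member differed from the median at an adjusted p below 0.05.

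**Figure D3:**
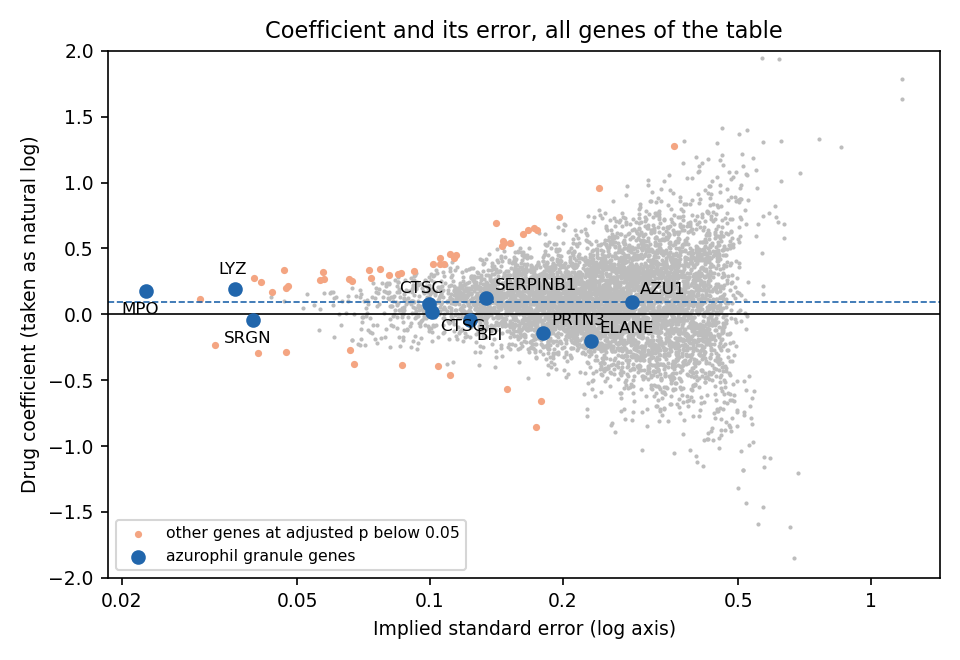
Drug coefficient (y axis, taken as natural log) against implied standard error (x axis, log scale) for the genes of the table, with the azurophil granule genes in blue and other genes at adjusted p below 0.05 in orange; 2 genes fall outside the range drawn. MPO is the leftmost point, with LYZ and SRGN close by, and the other members lie to the right at errors from 0.10 to 0.29.

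The members differed widely in how well they were measured. The implied SE was below the median of all genes for 9 of 10 and above it for AZU1 (0.29). A coefficient as large as that of MPO would have passed at the errors of 3 members, MPO, LYZ and SRGN, and at those of 0.238% of all genes. The genes most like MPO in coefficient and log of the implied SE together were ACTB (0.12 ± 0.03), LYZ and CALR (0.28 ± 0.04) in the authors' deposited table, by Euclidean distance over both quantities scaled by their SD across genes (0.633, 1.01 and 1.26). MPO alone held 52.0% of the precision weight of the 10 genes, and the weighted mean of 0.13 therefore lay well above their median of 0.05.

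Other genes of the granule pathway are described by list, each with its median beside 0.09 for all genes. At the same threshold 0.634% of all genes were called higher and 0.174% lower. Among 12 measured of 16 further proteins of the azurophil granule and its membrane, 1 rose, 0 fell and 11 did not pass, with a median of 0.14. The one that rose was PLAC8, which the authors' deposited table puts at 0.32 ± 0.09 with an adjusted p of 0.0369. After centring on the median its adjusted p was 0.392. CD68, a lysosomal membrane glycoprotein, had 0.38 ± 0.24 with an adjusted p of 0.597 and ATP6AP2, an accessory subunit of the vacuolar proton pump, 0.22 ± 0.13 with an adjusted p of 0.58 there. The defensins DEFA1B and DEFA3 were in this list without passing; they were picked out after their values were seen, and their sequences are nearly identical, so reads may have been split between them.

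Of 17 measured lysosomal hydrolases that azurophil granules also store, out of 27 listed, 0 passed in either direction. In the authors' deposited table they had a median of 0.03. DPP7, a dipeptidyl peptidase, had 0.32 ± 0.14 with an adjusted p of 0.385 and CTSD, the aspartic protease cathepsin D, -0.42 ± 0.19 with an adjusted p of 0.415 there. Of 8 measured serpins and cystatins other than SERPINB1, 0 passed, with a median of -0.03. SERPINB6 had -1.18 ± 0.51 with an adjusted p of 0.376 and SERPINB10 0.14 ± 0.09 with an adjusted p of 0.652 in the authors' deposited table.

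Cargo of the granules formed later in neutrophil maturation was thinly represented. Of 28 specific and gelatinase granule genes 9 were measured and 0 passed, with a median of -0.02 and larger errors (median implied SE 0.33, against 0.11 for the 10 azurophil genes). The adhesion molecule CEACAM6 had -0.38 ± 0.26 with an adjusted p of 0.651 and the integrin subunit ITGAM 0.36 ± 0.35 with an adjusted p of 0.781 in the authors' deposited table.

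Eosinophil granule genes gave values on the other side of the median from MPO and LYZ. Of 5 measured, 1 fell, 0 rose and 4 did not pass, and the median was -0.29 with all 5 below that of all genes. RNASE2, a ribonuclease, fell by 0.46 ± 0.11 (adjusted p of 0.011) in the authors' deposited table, and MPO exceeded it by 0.63 (95% interval 0.41 to 0.85). EPX, the eosinophil peroxidase related to MPO, had -0.38 ± 0.11 with an adjusted p of 0.0597 there and lay 0.55 (0.33 to 0.77) below MPO, while PRG2, the major basic protein, had -0.12 ± 0.06 with an adjusted p of 0.414. After centring on the median 3 of the 5 genes were called lower, beside 0.507% of all genes under the same rule and 0.174% as deposited. Their median implied SE was 0.11 against 0.25 for all genes, but the errors were uneven. RNASE3, whose coefficient is the median of the list, had -0.29 ± 0.37 with an adjusted p of 0.845 in the authors' deposited table. CLC had -0.08 ± 0.20 there, with an adjusted p of 0.933. Both were within error of 0. The differences from MPO, like those among members, do not depend on the placement of zero. They were computed for RNASE2 and EPX, which had the smallest p-values of the list, and their intervals were not widened for that choice. No difference from MPO was computed for the other genes of the list.

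Genes that serve MPO synthesis included CALR, encoding calreticulin, a chaperone of the MPO precursor. Of 13 measured genes for MPO folding, haem supply and maturation, 1 rose, 0 fell and 12 did not pass, with a median of 0.16. CALR rose by 0.28 ± 0.04 (adjusted p of 5.42e-09) in the authors' deposited table and passed after centring with an adjusted p of 0.00246. The implied SE of CALR ranked 6 among all genes, and 21.9% of the 64 most precisely measured genes were called higher. CALR lay 0.10 (95% interval 0.01 to 0.19) above MPO. That interval was neither widened for the choice of CALR, the called gene of its list, nor computed with inflated errors, so a separation from MPO is not established. The chaperone HSPA5 had 0.16 ± 0.06 with an adjusted p of 0.199 and the proprotein convertase PCSK7 0.47 ± 0.34 with an adjusted p of 0.677 in the authors' deposited table.

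Genes that build or sort the granule gave 1 call. Of 31 measured genes for granule biogenesis and sorting, LYST rose and 30 did not pass, with a median of 0.11. LYST, mutated in Chediak-Higashi syndrome with its giant granules, had 0.38 ± 0.11 with an adjusted p of 0.0369 in the authors' deposited table and an adjusted p of 0.293 after centring. GGA2, an adaptor for lysosomal sorting, had 0.50 ± 0.16 with an adjusted p of 0.113 and GNPTG, a subunit of the enzyme that makes the mannose 6-phosphate tag, 0.67 ± 0.27 with an adjusted p of 0.305 there. Of 14 measured genes that build and sulphate the sugar chains of proteoglycans such as SRGN, 0 passed, with a median of 0.05; the sulphotransferase CHST12 had -1.03 ± 0.30 with an adjusted p of 0.0642 and B3GAT3, which completes the linker, 0.84 ± 0.38 with an adjusted p of 0.402 in the authors' deposited table. After centring on the median CHST12 was called lower with an adjusted p of 0.0371.

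Transcription factors of granule genes were measured for 16 of 19, and 0 passed as deposited. In the authors' deposited table they had a median of 0.14. CUX1 had 0.76 ± 0.24 with an adjusted p of 0.12 and CEBPE, required for later granule types and for eosinophils, -0.38 ± 0.13 with an adjusted p of 0.153 there. CEBPE was called lower after centring on the median with an adjusted p of 0.0388.

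**Figure D4:**
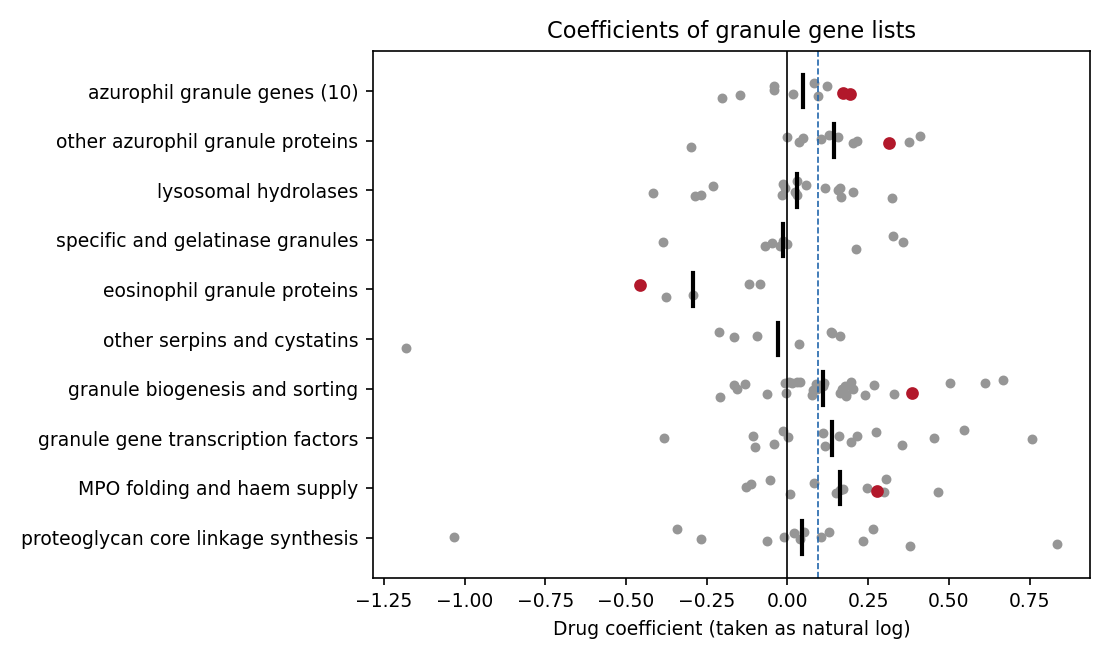
Drug coefficient (x axis, taken as natural log) of each measured gene in the azurophil granule set and 9 related gene lists; each point is a gene, red marks an adjusted p below 0.05, the short black bar is the median of the list, the solid line is 0 and the dashed line the median of all genes (0.09). The 10 azurophil granule genes straddle both lines with MPO and LYZ at the right, and all 5 eosinophil granule genes lie to the left of 0.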

How the data were processed

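HL-60 total RNA and ribosome-protected fragments went through UMI-tools 1.1.1, Bowtie2 and SAMtools 1.11 with hg38 as the genome build, per the submitters' processing notes, which as used here give no role or order. The model, its count filter and its scaling are not stated in the labels or the file header. The deposited table holds, per the file headers, a coefficient for the drug, read here as a natural log. It also holds its p-value, adjusted p-value and q-value, all from the authors' model. The adjusted p-values equal Benjamini-Hochberg values over all 6309 genes (differences up to 6.61e-14). The planned count model could not be run without values per library, and the depth of each library is unknown.

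Implied standard errors, 95% intervals, centred values and differences between genes were computed in Python 3.11.15 with scipy 1.17.1; centred and inflated values were tested by z and adjusted over all genes. The code was tested on simulated data. Members and lists were chosen with earlier results of these data known. All 10 members are named. From each list of pathway genes the calls and the 2 other genes with the smallest p-values are named. DEFA1B and DEFA3 are named besides, as are RNASE3 and CLC, to show how errors vary within the eosinophil list. Lineage marker lists served only to count the markers present. Alternatives were other zeros, thresholds, adjustments, errors and a precision filter. Positions and start windows are from RefSeq (GRCh38.p14), matched by symbol for 10 and 5 members.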

Additional observations from a re-analysis of the deposited data

How the results depend on the processing

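The 2 granule genes called higher stayed 2 at adjusted p thresholds of 0.01 and 0.1, with the Benjamini-Yekutieli adjustment, with the authors' q-value and without the 25% least precise genes; none was called lower under any alternative run. Centring on the median of all genes left 0 higher calls, with coefficients of 0.079 for MPO and 0.099 for LYZ, and turned AZU1 (-0.0016), CTSG (-0.078), CTSC (-0.014) and the median of the members (-0.046). Centring on the precision-weighted mean left 1, MPO with an adjusted p of 0.0387, with LYZ at 0.10, and turned CTSG (-0.072), CTSC (-0.0084) and the median (-0.040). These changes follow from subtracting a constant. Inflated errors left 1, as LYZ kept 0.19 with an adjusted p of 0.149. Of 80 comparisons of a member with an alternative, 71 kept direction and side of the threshold, 4 lost the call and 5 turned, none of the turned values being a call. The precision-weighted mean of the members was 0.13.

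Over all genes, calls went from 51 (40 higher and 11 lower) to 19 (13 and 6) below 0.01, 86 (66 and 20) below 0.1, 18 (12 and 6) with Benjamini-Yekutieli and 7 (4 and 3) with inflated errors. With the median as zero, 5 were higher and 32 lower, and with the weighted mean 6 and 31. No paired analysis was possible because the deposited table holds no values per library, and leaving out replicates was not run for the same reason.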
